A study of Homo sapiens with 21 samples.

Results

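The estrogen-related receptors and the coregulators most closely tied to them are 7 genes of the 58735 in the deposited table. They were found in the table by gene symbol: the receptors ESRRA, ESRRB and ESRRG, the coactivators of the PGC-1 family PPARGC1A, PPARGC1B and PPRC1, and the corepressor NRIP1. Their RNA was followed in 21 libraries of MDA-MB-453 cells, an established human breast cancer line of luminal type, with 3 libraries in each of 7 groups. The comparison addresses at what RNA level the cells express the receptors known to bind the ligands of the study, and whether the treatments changed the RNA of the receptors or their partners. RNA levels do not show on which receptor protein a ligand acts.

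Control cells were untreated. The others received 10 mM calcium, 10 μM cadmium, 5 μM GSK4716 or 10 μM DES for 24 h, or DES 3 h ahead of either metal. GSK4716 is a synthetic compound that the study used as an agonist of ESRRB. DES is diethylstilbestrol, a synthetic estrogen that the study used as an antagonist of ESRRB. As background, GSK4716 is known to act on ESRRB and ESRRG, and DES is known as an inverse agonist of all the estrogen-related receptors and as an agonist of the classical estrogen receptors. Calcium and GSK4716 were given without serum and cadmium with reduced serum, and the medium of the single control group was not specified, so that treatment and medium cannot be told apart. GSK4716 and DES were dissolved in ethanol, and the study does not state whether the groups without them received ethanol. Nothing in the labels says that the 3 libraries of a group came from separate cultures, and p-values then measure only the spread between these libraries, which may be technical.

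Estrogen-related receptors are nuclear receptors thought to lack a natural ligand, although the study cites reports that cholesterol may be an agonist of ESRRA. They bind DNA at the estrogen-related receptor response element, TNAAGGTCA, and much of their activity is set by the coregulator they hold. PGC-1 coactivators bind them and turn on genes of the citric acid cycle, the respiratory chain and fatty acid oxidation, while NRIP1, also called RIP140, opposes this program. ESRRB is best known from pluripotent stem cells and the placenta, ESRRG from heart, muscle and kidney, and ESRRA from most tissues with a high energy demand.

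The members lie on 7 chromosomes of GRCh38. ESRRA spans chr11:64305572-64316743 on the plus strand, ESRRB chr14:76310712-76501837 on the plus strand and ESRRG chr1:216503246-217137755 on the minus strand. PPARGC1A spans chr4:23755041-23904089 (minus), PPARGC1B chr5:149730298-149855022 (plus), PPRC1 chr10:102132994-102150331 (plus) and NRIP1 chr21:14961235-15065936 (minus). The element TNAAGGTCA was searched on both strands in the 1000 bases before the start of each member. The window of ESRRA held it and those of the 6 other members did not, against 3.68% of the 19904 windows of protein-coding genes. ESRRA had 3 matches on the strand opposite to the gene, and successive matches began 23 bases apart. They are shown because ESRRA had the highest RNA level of the receptors here and because its promoter is known, as background, to be bound by estrogen-related receptors. Each line is read 5′ to 3′ on the minus strand of the reference, and the capitals mark the element:
ESRRA element 694 bases before the start, within chr11:64304868-64304896: cggagaaagcTCAAGGTCActgcggtgac
ESRRA element 717 bases before the start, within chr11:64304845-64304873: ggtgaccgaaTGAAGGTCActgcggtgac
ESRRA element 740 bases before the start, within chr11:64304822-64304850: ggtgaccgaaTGAAGGTCAcggggaaggg

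The core AAGGTCA, which lies inside the element, was again found before ESRRA and before no other member, against 15.4% of the protein-coding windows. In the RefSeq promoter windows, which reach 250 bases before and 50 after a start, no window of a member held the full element (0.951% of all 35116 windows did) and 1 of the 8 ESRRG windows held the core (3.92% of all windows did). These are matches of letters in the reference, and how many copies the cell line carries was not measured.

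Values are FPKM, fragments scaled to gene length and library size, so levels of different genes are compared per length. Ratios and shares between genes depend on the length used. It was 3030 bases for ESRRA, 5930 for ESRRB, 10912 for ESRRG and 10870 for PPARGC1A. Their longest annotated transcripts had 2293, 5009, 5542 and 6288 bases. The libraries held 14435925 to 28424805 fragments on genes. All 7 luminal markers were expressed (summed level 1048 to 3195 FPKM), while the 3 basal and the 3 haematopoietic markers each had a mean under 0.5 FPKM. Of the 3 mesenchymal markers VIM and COL1A2 were under it too, while COL1A1, a collagen chain, had a mean of 14.8 FPKM. Between 16605 and 35112 genes were detected, and over 28000 in 4 libraries, cadmium replicates 2 and 3, GSK4716 replicate 3 and DES replicate 3. Mitochondrial messages took 4.32% to 8.10% of fragments without DES and 0.783% to 3.56% with DES. A mean of at least 0.5 FPKM was required for the test over 14686 genes. ESRRA, PPARGC1B, PPRC1 and NRIP1 passed it, and ESRRB, ESRRG and PPARGC1A, which did not, were read from the same fit without that filter.

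ESRRA was the predominant receptor. Its mean over the 21 libraries was 21.7 FPKM, which was 88.6 times that of ESRRG (0.245 FPKM) and 437 times that of ESRRB (0.0497 FPKM). ESRRA made up 97.2% to 99.8% of the summed receptor FPKM, with a median of 98.7%, while ESRRG made up 0.136% to 2.78% and ESRRB 0% to 0.809%. Among the 19059 protein-coding genes detected, the mean level of ESRRA stood at percentile 89.1, that of ESRRG at 38.4 and that of ESRRB at 28.8.

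**Figure D1:**
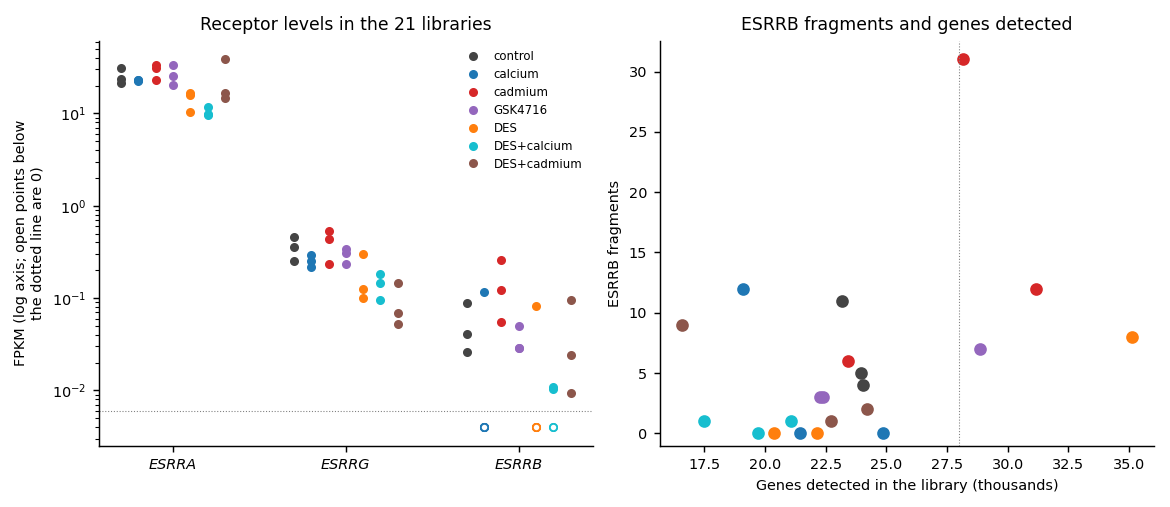
Left, FPKM of the 3 estrogen-related receptors in each of the 21 libraries, coloured by group, on a log axis. Right, ESRRB fragments in each library against the number of genes detected. ESRRA lies between 9.67 and 38.7 FPKM, above every ESRRG and ESRRB value, and the highest ESRRB count, 31 fragments, is in a cadmium library in which over 28000 genes were detected.

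ESRRB, the receptor named as the target of the ligands, was read by few fragments. Control libraries held 5, 11 and 4 fragments, GSK4716 3, 3 and 7, calcium 0, 12 and 0 and cadmium 6, 31 and 12. DES libraries held 0, 0 and 8, DES with calcium 1, 0 and 1 and DES with cadmium 9, 2 and 1. The highest library, cadmium replicate 2, reached 0.257 FPKM, and 5 libraries held none, a count that allows up to 3 fragments. Summed over a group, control held 20 fragments (95% exact Poisson interval 12.2 to 30.9), GSK4716 13 (6.92 to 22.2) and cadmium 49 (36.3 to 64.8). These intervals cover counting error only.

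ESRRB fragments were more frequent in the 4 libraries in which over 28000 genes were detected, without a steady rise. The 4 libraries over 28000 genes held 7 to 31 fragments, 58 in all, and the other 17 held 0 to 12, again 58 in all. The 31 were in cadmium replicate 2, and the 12 in calcium replicate 2, where only 19106 genes were detected. The log2 difference of ESRRB between cadmium and control was 0.63 (95% interval -0.45 to 1.71, adjusted p = 0.593) in limma. Without the 4 libraries it was 0.06, a value that rests on 1 cadmium library, and it was 1.38 with limma-voom and 1.07 with arrayWeights, neither of them called. The part of the detection rate in the cadmium value was not tested. GSK4716 gave a log2 difference from control of -0.14 (95% interval -0.61 to 0.33, adjusted p = 0.920). At these counts only large changes of ESRRB RNA were detectable.

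ESRRG, the other receptor on which GSK4716 is known to act, held 0.360, 0.464 and 0.255 FPKM in control and 0.342, 0.232 and 0.311 FPKM with GSK4716, which overlapped. Calcium held 0.218, 0.252 and 0.295 FPKM and cadmium 0.534, 0.437 and 0.234 FPKM. With DES the libraries held 0.126, 0.298 and 0.0996 FPKM, with DES and calcium 0.181, 0.144 and 0.0952 FPKM, and with DES and cadmium 0.0684, 0.0529 and 0.146 FPKM. Of these 9 libraries 8 lay below all 12 libraries without DES (0.218 to 0.534 FPKM), and DES replicate 2 did not. Of the genes above the filter, which ESRRG did not pass, 8.58% had at least 8 of the 9 DES libraries below all 12 others. None of the 3 tests passed. The log2 difference was -0.79 (SE 0.47, adjusted p = 0.543) for DES against control, -0.57 (SE 0.62, adjusted p = 0.831) for DES with calcium against calcium and -1.39 (SE 0.54, adjusted p = 0.347) for DES with cadmium against cadmium. The last passed when all 7 groups shared one fit (adjusted p = 0.0337). After a correction for GC content and gene length the first was -0.29 and the last -0.55, and the first was -1.37 with limma-voom and -0.36 with arrayWeights, not called in any of them.

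ESRRA fell with DES. Control libraries held 21.6, 23.3 and 31.2 FPKM and DES libraries 16.7, 10.4 and 15.9 FPKM, and the groups did not overlap. The means were 25.4 ± 5.13 and 14.3 ± 3.40 FPKM (SD, n = 3), a log2 change of -0.83 (SE 0.24, adjusted p = 0.0370) in limma. ESRRA was the only member called in this comparison, where 29.6% of all genes tested were called and 12.9% were called lower. The call was lost in 5 of 6 fits that left out a library: without control replicate 1, 2 or 3 (adjusted p = 0.0740, 0.0901 and 0.104) and without DES replicate 2 or 3 (0.0973 and 0.0550). It held without DES replicate 1 (0.0302), and was lost without the filter on low values (0.176). In the 6 fits that left out a library the log2 change was -0.62 to -0.95, and after the correction for GC content and length it was -1.02 (adjusted p = 0.00618). In bulk RNA of this kind, fewer cells with the message and less message per cell cannot be told apart.

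In the presence of calcium ESRRA also fell with DES. Calcium libraries held 23.1, 22.8 and 22.3 FPKM and DES with calcium 9.67, 9.85 and 11.8 FPKM, again without overlap. The means were 22.8 ± 0.403 and 10.5 ± 1.21 FPKM, a log2 change of -1.12 (SE 0.14, adjusted p = 0.00287). ESRRA was the only member called, where 35.1% of genes were called and 16.5% called lower. This call held under each alternative that was run, left-out libraries included.

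In the presence of cadmium the libraries overlapped. Cadmium gave 23.1, 31.1 and 33.6 FPKM and DES with cadmium 14.8, 38.7 and 16.6 FPKM. Replicates 1 and 3 of the combined group lay below all cadmium libraries, and replicate 2 was the highest of the 21. The log2 difference was -0.45 (95% interval -1.40 to 0.51, adjusted p = 0.468), and -0.88 (adjusted p = 0.0852) without that replicate, which also had the lowest share of mitochondrial messages, 0.783%. Over the study 8 of the 9 libraries with DES lay below all 12 without it (20.1 to 33.6 FPKM), as at least 8 did in 8.58% of genes.

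Without DES no difference in ESRRA was called. The GSK4716 libraries held 20.1, 33.5 and 25.7 FPKM, on both sides of control. The log2 difference from control was 0.05 (95% interval -0.51 to 0.60, adjusted p = 0.945) for GSK4716, -0.14 (95% interval -0.52 to 0.24, adjusted p = 0.664) for calcium and 0.20 (95% interval -0.30 to 0.71, adjusted p = 0.551) for cadmium. In order of mean level the groups ran cadmium, GSK4716, control, DES with cadmium, calcium, DES and DES with calcium, and of these neighbours only calcium and DES did not overlap. Adding a metal to DES gave -0.43 (SE 0.22, adjusted p = 0.443) for calcium and 0.59 (SE 0.41, adjusted p = 0.695) for cadmium.

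Of the ESRRA exon bases 284 (9.16%) overlap exons of TRMT112 on the opposite strand. The sources differ on whether strand was kept, so reads there could not be assigned with certainty. TRMT112, a partner protein of methyltransferases that was named after its values were seen, moved the other way. It ranged from 43.7 to 92.0 FPKM in the 12 libraries without DES and from 98.6 to 202 FPKM in the 9 with DES, and 4.14% of genes had all 9 above the 12 others. TRMT112 rose by 1.35 (SE 0.29, adjusted p = 0.0137) in DES with calcium against calcium and by 1.58 (SE 0.24, adjusted p = 0.0305) in DES with cadmium against cadmium, and the difference was 0.77 (SE 0.24, adjusted p = 0.0517) for DES against control. Leaving out a library, the first call held in 6 of 6 fits and the second in 2.

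**Figure D2:**
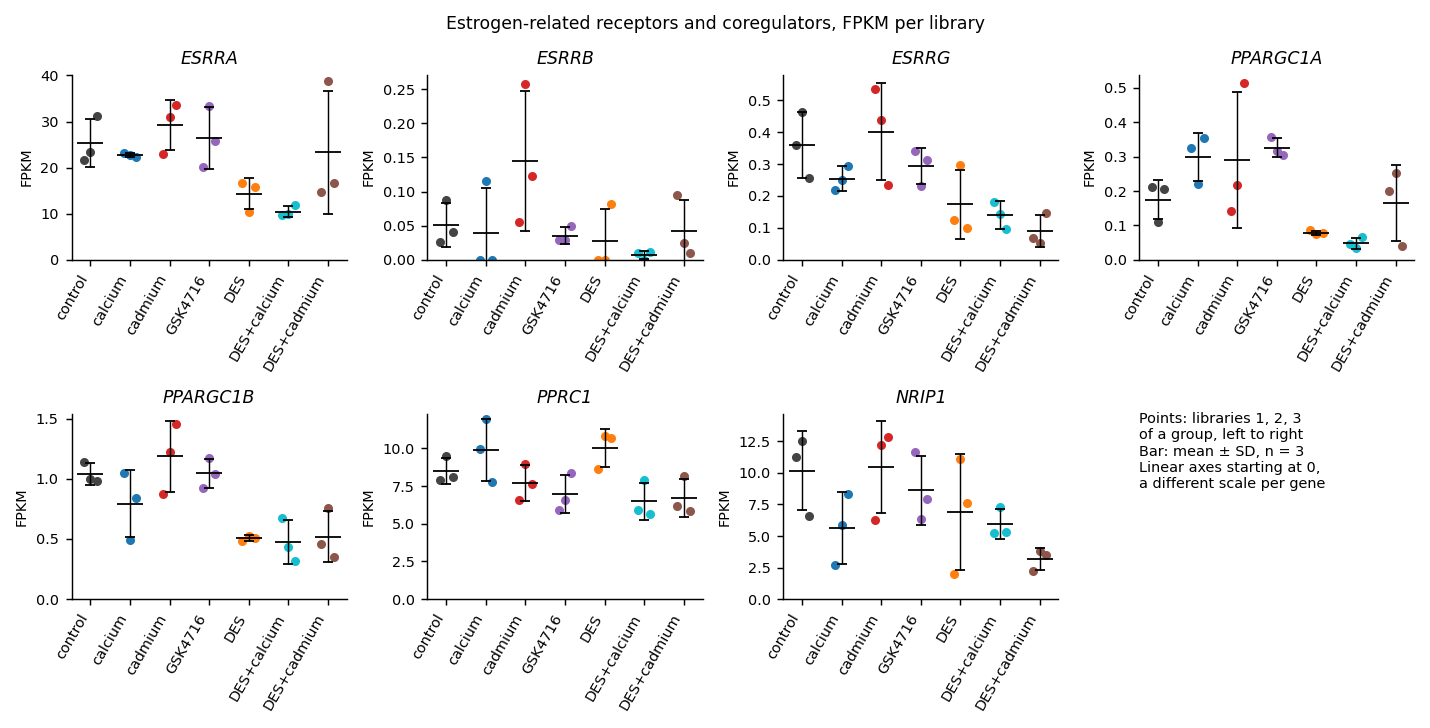
FPKM of each of the 7 genes in the 3 libraries of every group (points) with the mean ± SD, on linear axes that differ between genes. ESRRA is lower with DES and with DES and calcium than in control and calcium, and the second library of DES with cadmium stands at 38.7 FPKM.

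The classical estrogen receptors were near the limit of detection. ESR1, estrogen receptor alpha, had 0, 2 and 0 fragments in control, 0, 0 and 6 with calcium, 2, 12 and 28 with cadmium and 0, 5 and 5 with GSK4716. It had 0, 0 and 7 with DES, 0, 0 and 6 with DES and calcium and 0, 2 and 2 with DES and cadmium. The 4 libraries with over 28000 genes detected held 52 of its fragments against 25 in the other 17. Over the 21 libraries ESR2, estrogen receptor beta, had 0 to 17 fragments, GPER1, a membrane estrogen receptor, 0 to 28, and CASR, the calcium-sensing receptor, 0 to 9. None of the 4 reached a mean of 0.5 FPKM or was called in any comparison.

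Among the PGC-1 coactivators PPRC1 was the most abundant. Its mean of 8.05 FPKM was 10.1 times that of PPARGC1B (0.795 FPKM), which was 4.02 times that of PPARGC1A (0.198 FPKM). PPRC1, a member of the family known to respond to serum, made up 79.5% to 94.8% of the summed FPKM of the family. PPARGC1B, a coactivator of estrogen-related receptors, made up 3.89% to 15.2%, and PPARGC1A, the inducible coactivator of brown fat, muscle and fasted liver, 0.407% to 5.36%.

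PPARGC1B was lower in every DES library than in any control library, although the difference did not pass the test. Control libraries held 1.14, 0.995 and 0.981 FPKM and DES libraries 0.480, 0.526 and 0.510 FPKM, and 22.9% of genes above the filter showed such a gap in this direction. The log2 difference was -0.91 (SE 0.28, adjusted p = 0.0503). It passed with limma-voom on recovered fragments (adjusted p = 0.00601), and it was -0.53 (adjusted p = 0.198) after the correction for GC content and length. In cadmium, 0.875, 1.22 and 1.46 FPKM without DES and 0.458, 0.755 and 0.346 FPKM with DES did not overlap either, as in 21.4% of genes, and the log2 difference was -1.08 (SE 0.43, adjusted p = 0.138). In calcium, 1.05, 0.493 and 0.839 FPKM without DES and 0.674, 0.434 and 0.317 FPKM with DES overlapped, and the log2 difference was -0.63 (SE 0.44, adjusted p = 0.296). GSK4716 libraries held 0.925, 1.17 and 1.04 FPKM, on both sides of control.

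PPARGC1A was read by 8 to 92 fragments per library. Control libraries held 0.211, 0.109 and 0.206 FPKM, and both calcium (0.326, 0.221 and 0.353 FPKM) and GSK4716 (0.359, 0.316 and 0.305 FPKM) lay above all of them. Among the 14686 genes above the filter, which PPARGC1A did not pass, such a gap was seen in 16% for calcium and in 10.7% for GSK4716. The log2 difference was 0.55 (95% interval -0.66 to 1.76, adjusted p = 0.809) for calcium and 0.65 (95% interval -0.20 to 1.51, adjusted p = 0.768) for GSK4716, and neither passed. With DES the libraries held 0.0854, 0.0737 and 0.0777 FPKM and with DES and calcium 0.0453, 0.0340 and 0.0657 FPKM. The DES libraries lay below all control libraries, as in 22.9% of the genes above the filter. DES with calcium differed from calcium by -1.42 (SE 0.64, adjusted p = 0.403), with no overlap, as in 25.1% of the genes above the filter, and limma-voom gave -2.85 (adjusted p = 0.00719). Cadmium held 0.142, 0.217 and 0.515 FPKM and DES with cadmium 0.20, 0.252 and 0.0405 FPKM, which overlapped.

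PPRC1 overlapped between control and DES. Control libraries held 7.93, 9.49 and 8.13 FPKM and DES 8.61, 10.8 and 10.7 FPKM, a log2 difference of 0.23 (SE 0.16, adjusted p = 0.315). DES with calcium held 5.92, 7.89 and 5.66 FPKM and DES with cadmium 6.16, 8.15 and 5.85 FPKM, in each case below every DES library, a gap seen in 12.1% and 10.9% of genes. The log2 difference from DES was -0.63 (SE 0.19, adjusted p = 0.283) with calcium and -0.58 (SE 0.23, adjusted p = 0.466) with cadmium, and neither passed, in comparisons where 0.136% and 0.266% of genes were called. Calcium alone gave 9.94, 11.9 and 7.79 FPKM. The effect of calcium with DES minus that without DES was -0.83 (95% interval -1.43 to -0.22, adjusted p = 0.123). DES with calcium against calcium gave -0.59 (SE 0.22, adjusted p = 0.0785), which did not pass here but was called lower in 5 of 10 alternatives that kept every library and in none of the 6 fits that left one out.

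NRIP1, known as a target of estrogen receptor alpha as well as a corepressor, varied widely between replicates. Control libraries held 11.3, 12.6 and 6.62 FPKM, calcium 2.67, 5.87 and 8.33 FPKM, GSK4716 11.7, 6.33 and 7.94 FPKM and DES 1.98, 11.1 and 7.62 FPKM, and all 3 treated groups overlapped control. The log2 difference from control was -0.93 (95% interval -2.05 to 0.18, adjusted p = 0.288) for calcium and -0.81 (95% interval -2.24 to 0.62, adjusted p = 0.340) for DES.

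NRIP1 fell with DES in cadmium. Cadmium libraries held 6.29, 12.2 and 12.9 FPKM and DES with cadmium 2.20, 3.85 and 3.48 FPKM, without overlap. The means of 10.5 ± 3.63 and 3.18 ± 0.863 FPKM differed by -1.66 (SE 0.38, adjusted p = 0.0442) on the log2 scale, and NRIP1 was the only member called, where 9.89% of genes were called and 5.13% called lower. The call was lost without any single library of the 6, the highest adjusted p being 0.188 without cadmium replicate 2. It was also lost after the correction for GC content and length, where the log2 difference was -0.97 (adjusted p = 0.0634). NRIP1 shares 562 exon bases with a noncoding RNA on the opposite strand and 87 with another on its own strand.

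No member was called for calcium, cadmium or GSK4716 against control, where 7.12%, 0.15% and 0% of genes were called. For GSK4716, 1128 genes were higher and 1276 lower at an unadjusted limma p under 0.05, and limma-voom called 25 higher and 24 lower. No member was called for the difference in the effect of a metal with and without DES, where 3.63% of genes were called for calcium and 1.18% for cadmium. In the fits without the filter, from which ESRRB, ESRRG and PPARGC1A were read, 0.133% of genes were called for calcium, 0.0842% for cadmium, 0% for GSK4716 and 4.67% for DES. When a metal was added to DES the share there was 0% (calcium) and 0.0155% (cadmium). It was 5.14% (calcium) and 0.293% (cadmium) when DES was added to a metal, and 0.461% and 0.321% for the differences in effect.

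Over the 4 members above the filter the median log2 difference was -0.82 for DES, -0.61 for DES with calcium against calcium and -0.76 for DES with cadmium against cadmium, beside 0.05, -0.01 and -0.08 over all genes tested. In each comparison 1 of the 4 was called. For DES they ran from -0.91 (PPARGC1B) to 0.23 (PPRC1), and NRIP1 lay between -1.31 and -0.09 in fits that left out a library. Scaling by total fragments moved the median of all genes to -0.12, -0.20 and -0.39. It moved the calls from 2447 higher and 1893 lower to 1861 and 2538 for DES, from 2722 and 2426 to 2110 and 3191 in calcium, and from 699 and 754 to 359 and 1043 in cadmium. On that scale ESRRA was again called lower with DES.

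**Figure D3:**
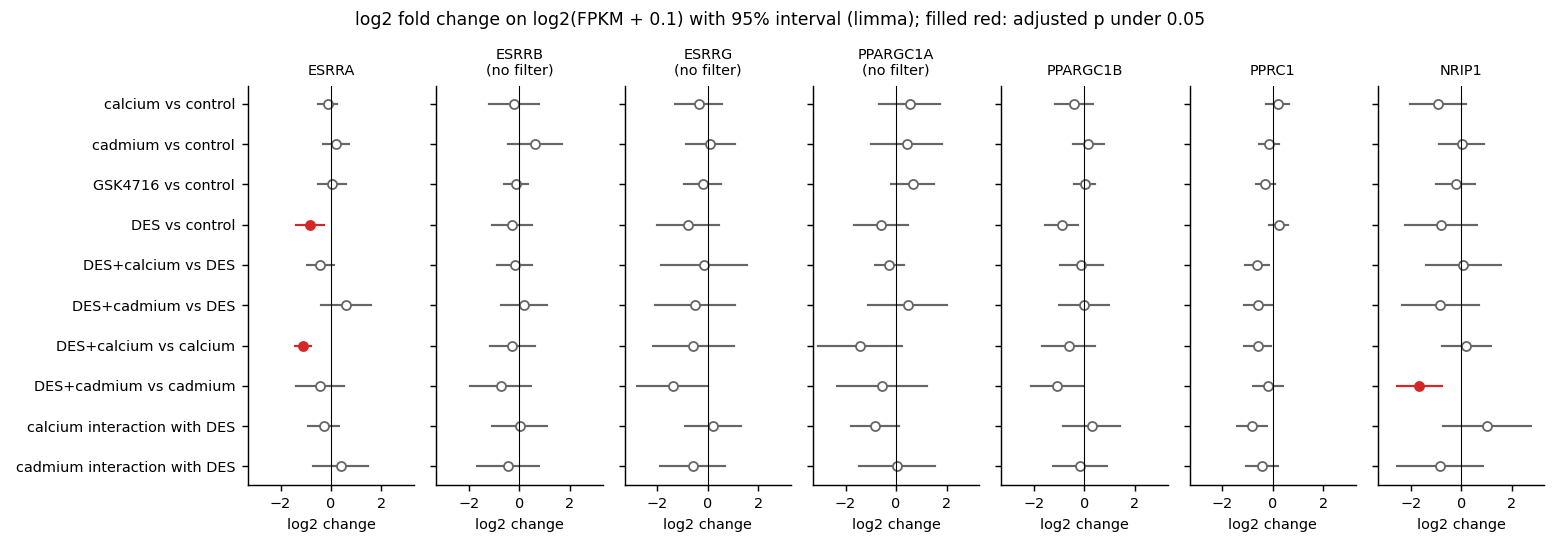
Log2 fold change (point) with its 95% interval (line) for each of the 7 genes in the 10 comparisons, on log2(FPKM + 0.1), with called genes in red. ESRRA is called for DES against control and for DES with calcium against calcium, and NRIP1 for DES with cadmium against cadmium.

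The 14 other nuclear receptor coactivators all passed the filter. With DES 1 rose and 5 fell, where 16.7% of all genes were called higher and 12.9% lower, and their median was -0.40 beside 0.05 for all genes. NCOA2 and NCOA3, p160 coactivators that bring acetyltransferases to receptors, fell by 1.37 (SE 0.18, adjusted p = 0.00332) and 0.91 (SE 0.17, adjusted p = 0.00903) on the log2 scale, on which all changes of these lists are given. MED1, the Mediator subunit that binds nuclear receptors, fell by 0.79 (SE 0.16, adjusted p = 0.0117), while PRMT1, an arginine methyltransferase, rose by 0.66 (SE 0.19, adjusted p = 0.0413), a call that held in 2 of 6 fits that left out a library and was lost in 6 of 11 other alternatives. In DES with calcium against calcium 7 fell and none rose, where 16.5% of all genes were called lower, with a median of -0.57 beside -0.01 for all genes. Among them the acetyltransferase EP300 fell by 0.98 (SE 0.14, adjusted p = 0.00442) and the small coactivator PNRC1 by 1.02 (SE 0.20, adjusted p = 0.0116). In DES with cadmium against cadmium MED1 fell by 0.94 (SE 0.21, adjusted p = 0.0428), a call lost without any single library. NCOA2 with DES and EP300 in calcium were called in every fit.

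PERM1, a regulator known to be induced by PGC-1 and estrogen-related receptors in muscle, was the one coactivator called with calcium. Control libraries held 2.00, 1.76 and 1.38 FPKM and calcium 4.28, 7.60 and 3.70 FPKM, and PERM1 rose by 1.49 (SE 0.31, adjusted p = 0.0461), where 4.6% of genes were called higher. DES libraries held 2.84, 2.20 and 2.89 FPKM and DES with calcium 2.28, 2.58 and 2.31 FPKM. The effect of calcium with DES minus that without was -1.62 (SE 0.38, adjusted p = 0.0381). The first call was lost without any single library and the second in 11 of 12 such fits. Calls over all genes for calcium against control also fell when a library was left out. From 675 higher and 371 lower they fell to 7 and 0 without control replicate 1, and to 499 and 237 without control replicate 3.

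Of 18 genes of the citric acid cycle and respiratory chain reported as receptor targets 17 were tested. With DES 2 of the 17 rose and none fell, where 16.7% of all genes were called higher. COX5B of cytochrome oxidase rose by 0.84 (SE 0.26, adjusted p = 0.0483) and ATP5F1B of the ATP synthase by 0.77 (SE 0.22, adjusted p = 0.0407). The COX5B call held in 1 and the ATP5F1B call in 2 of 6 fits that left out a library, and neither held after the correction for GC content and length. In DES with calcium against calcium, where ESRRA fell, 10 rose and 1 fell, with a median of 0.79 beside -0.01 for all genes, and 18.5% of all genes were called higher. COX5B rose by 1.37 (SE 0.29, adjusted p = 0.0135), ATP5F1C of the ATP synthase by 1.36 (SE 0.21, adjusted p = 0.00546) and SDHB of succinate dehydrogenase by 1.24 (SE 0.22, adjusted p = 0.00760), while OGDH, of the oxoglutarate dehydrogenase complex, fell by 0.99 (SE 0.18, adjusted p = 0.00898). In DES with cadmium against cadmium 2 rose, NDUFA4 by 1.75 (SE 0.41, adjusted p = 0.0472) and COX5B by 1.35 (SE 0.28, adjusted p = 0.0404), where 4.76% of all genes were called higher, and both calls were lost without any single library. The lower share of messages from the mitochondrial genome with DES, given above, concerns other genes than these nuclear ones.

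Fatty acid oxidation and fuel choice had 8 of 10 genes tested. With DES 2 fell and none rose, where 12.9% of all genes were called lower, and the list median was 0.15 beside 0.05 for all genes. CPT1A, which admits long-chain fatty acids to mitochondria, held 8.30, 11.3 and 18.5 FPKM in control and 4.67, 2.99 and 4.97 FPKM with DES, and fell by 1.53 (SE 0.33, adjusted p = 0.0155). PPARA, a fatty acid receptor, fell by 1.57 (SE 0.31, adjusted p = 0.0111). Each of these calls held in 4 of 6 fits that left out a library. In DES with calcium against calcium CPT1A fell by 1.14 (SE 0.34, adjusted p = 0.0394), while PDK2, a kinase of pyruvate dehydrogenase, rose by 1.09 (SE 0.27, adjusted p = 0.0235) and HADHA, of the trifunctional protein, by 0.70 (SE 0.13, adjusted p = 0.00967). In this comparison the calls of CPT1A and PDK2 held in 2 of 6 such fits and that of HADHA in 6. With calcium alone ACADVL, an acyl-CoA dehydrogenase, rose by 0.90 (SE 0.16, adjusted p = 0.0291), a call lost without any single library.

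Of 12 genes of mitochondrial biogenesis, with DES 1 rose and 1 fell, where 16.7% of all genes were called higher and 12.9% lower, and the median was -0.33. The one that rose, SOD2, has more than 1 row in the table and no value is given for it. MFN1, which fuses mitochondria, held 12.9, 12.4 and 11.1 FPKM in control and 5.19, 4.51 and 4.47 FPKM with DES, and fell by 1.34 (SE 0.15, adjusted p = 0.00199). In DES with calcium against calcium 1 rose and 4 fell, where 18.5% of all genes were called higher and 16.5% lower, among them MFN1 by 1.26 (SE 0.21, adjusted p = 0.00602), while TFAM, which packages mitochondrial DNA, rose by 0.78 (SE 0.22, adjusted p = 0.0324). Both MFN1 calls held in every fit, and that of TFAM in 2 of 6 fits that left out a library. The core AAGGTCA lay before 7 of the 18, 6 of the 10 and 3 of the 12 genes of these lists, and the full element before 1, 1 and 0 of them, where 15.4% and 3.68% of all protein-coding windows held them. Of 17 genes tied to ESRRB in stem cells, taken up below, 4 had the core and 3 the full element. Of 10 reported targets outside mitochondria 3 had the core and 1 the full element. Among lists that are not of receptor targets the core lay before 2 of the 14 coactivators, 1 of the 10 corepressors and deacetylases, 3 of the 7 luminal, 2 of the 3 basal, 2 of the 3 mesenchymal and 0 of the 3 haematopoietic markers.

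**Figure D4:**
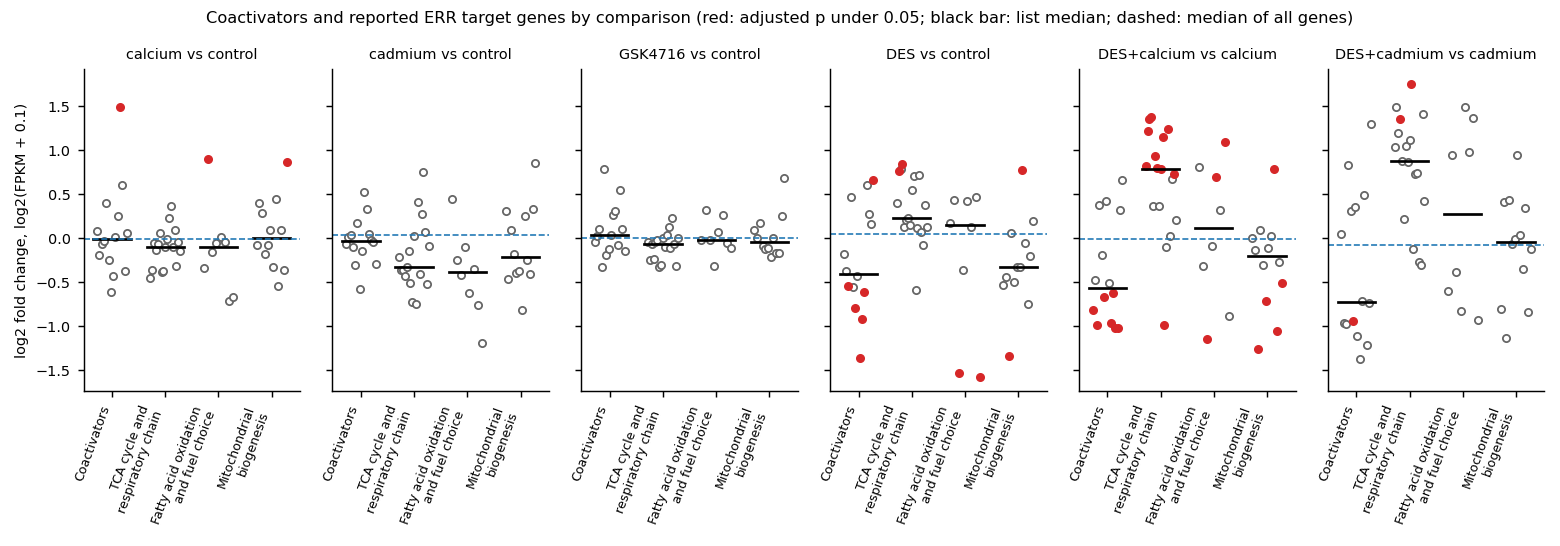
Log2 fold change of each tested gene (points) of the coactivators and of 3 lists of reported receptor targets in 6 comparisons, with called genes in red, the list median as a black bar and the median of all genes tested as a dashed line. For DES with calcium against calcium the coactivator median is -0.57 and that of the citric acid cycle and respiratory chain 0.79, and the GSK4716 and cadmium panels hold no red point.

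Genes tied to ESRRB in stem cells were mostly near 0. Of 17, 4 passed the filter: KLF2, KLF4, KLF5 and TBX3. Over the 21 libraries SOX2 had 0 to 12 fragments, NANOG 0 to 2 and POU5F1 0 to 33, and none of these 3 was called in any comparison. KLF4, a reprogramming factor and a gene of epithelial differentiation, held 5.29, 3.95 and 7.53 FPKM in control, 22.1, 43.5 and 30.2 FPKM with calcium and 9.19, 12.2 and 11.2 FPKM with DES. It rose by 2.49 (SE 0.32, adjusted p = 0.0160) with calcium and by 0.99 (SE 0.26, adjusted p = 0.0281) with DES. The first call held in 4 of 6 fits that left out a library, and the second in 2 of 6 and not after the correction for GC content and length. In DES with calcium against calcium KLF4 fell by 1.29, a call that held in 2 of 6 left-out fits. GSK4716 libraries held 8.50, 11.1 and 10.0 FPKM, a log2 difference of 0.85 (SE 0.25, adjusted p = 0.203) that did not pass.

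KLF2, a factor of the same family known from quiescent cells, held 116, 149.9 and 107 FPKM with calcium and 9.58, 8.98 and 13.9 FPKM with DES and calcium, and fell by 3.52 (SE 0.22, adjusted p = 0.00167) in a call that held in every fit. KLF5 held 1.22, 1.18 and 1.66 FPKM in control and 3.49, 5.87 and 7.38 FPKM with DES, and rose by 1.92 (SE 0.31, adjusted p = 0.00618), again in every fit.

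Of 10 reported targets outside mitochondria 4 passed the filter, and 3 rose with calcium, where 4.6% of all genes were called higher. CDKN1A, the cell cycle inhibitor p21, held 7.48, 12.6 and 11.9 FPKM in control and 57.9, 129 and 108 FPKM with calcium, and rose by 3.15 (SE 0.35, adjusted p = 0.0120). TFF1, a secreted trefoil peptide, rose by 2.21 (SE 0.38, adjusted p = 0.0280) and CDH1, E-cadherin, by 1.04 (SE 0.15, adjusted p = 0.0187). Leaving out a library, the CDKN1A call held in 4 of 6 fits, that of TFF1 in 2 and that of CDH1 in 3. With DES CDH1 rose by 2.01 (SE 0.16, adjusted p = 0.000543), in every fit. Of 12 estrogen-responsive genes 8 passed. AREG, a growth factor of the EGF family, held 0.507, 0.661 and 0.404 FPKM in control, 9.57, 67.9 and 25.6 FPKM with calcium and 2.15, 3.27 and 8.83 FPKM with DES. It rose by 5.38 (SE 0.68, adjusted p = 0.0149) with calcium and by 2.73 (SE 0.51, adjusted p = 0.00925) with DES, where TFF3 also rose, by 1.39 (SE 0.42, adjusted p = 0.0444). The AREG call held in 4 of 6 left-out fits with calcium and in 6 with DES, and that of TFF3 in 2. In DES with calcium against calcium AREG fell by 2.84, a call that held in 3 of 6 such fits. TFF3 rose there by 1.82, a call that held in 6. No gene of these lists was called with GSK4716 or with cadmium alone.

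In DES against control, where ESRRA fell, 3 of the 7 luminal markers were called lower and none higher. Over all genes tested 12.9% were called lower. The median of the 7 was -0.22 beside 0.05 for all genes. Their summed level overlapped, at 1366 to 1703 FPKM in control and 1048 to 1800 FPKM with DES. The luminal transcription factor FOXA1 held 179.6, 147 and 179 FPKM in control and 101, 75.9 and 53.2 FPKM with DES, and fell by 1.17 (SE 0.25, adjusted p = 0.0155). GATA3, another of them, held 278, 225 and 301 FPKM in control and 140.1, 121 and 112 FPKM with DES, and fell by 1.11 (SE 0.19, adjusted p = 0.00774). The FOXA1 call held in 3 of 6 fits that left out a library and that of GATA3 in 6. Their part in the ESRRA result was not tested.

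Over the 21 libraries the genes most like ESRRA in log2 level were ZBTB22, PIP5K1C and TPRN, with Pearson r of 0.948, 0.922 and 0.907. For PPARGC1B they were TBC1D16, SLC46A3 and AC040160.1 (0.913, 0.913 and 0.909) and for NRIP1 ZBTB6, DIS3 and PDS5B (0.926, 0.908 and 0.896). For PPRC1 they were AC092755.1, MIDN and MICAL3, with lower values of 0.753, 0.722 and 0.686. These points share treatment groups, depth and base composition, and each gene was picked as among the highest of all genes with a mean of at least 1 FPKM.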

How the data were processed

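Poly-A RNA of MDA-MB-453 cells was sequenced in 21 libraries, 3 in each of 7 groups taken from the labels. The authors deposited FPKM per gene, made with HISAT2 2.0.5 and featureCounts 1.5.0-p3 on GRCh38.p14 according to the submitters' processing notes. FPKM multiplied by gene length gave whole fragments for 100% of values (tolerance 0.05), which supplied the fragment counts. No pair of libraries had equal fragments in more than 1.16% of genes. Other experiments of the study were not analysed here, and some genes of the lists are not reported here.

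The 7 members and the gene lists were chosen with earlier results of these data known. Differences were tested with limma 3.58.1 (R 4.3.3) with an intensity trend, on log2(FPKM + 0.1), which understates changes of low genes, over 14686 genes with a mean of at least 0.5 FPKM and with only the compared groups in each fit. P-values were two-sided and adjusted over all genes by Benjamini-Hochberg, and called means an adjusted p under 0.05. The script was tested on simulated data. Besides the members, up to 3 called genes with the greatest change in each direction were named per list and comparison, as were list genes that the study measured by qPCR and the 3 genes most correlated with each member above the filter. Promoter windows came from the reference genome and from RefSeq.

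Alternatives were a pseudocount of 1, no filter, a mean of at least 2 FPKM, median-ratio and total-fragment scaling, limma-voom on recovered fragments, limma arrayWeights, the 7 groups fitted jointly, the replicate number as a block, and leaving out each library. A correction for GC content and length, and a fit without the 4 libraries with over 28000 genes detected, were chosen after seeing the data. The replicate numbers paired the samples, with every correlation of same-numbered deviations over 0.1, where calcium (0.132, 0.103 and 0.280) or cadmium (0.472, 0.121 and 0.313) was added to DES, and in no other comparison. Python 3.11.15, numpy 2.4.6, pandas 2.3.3, scipy 1.17.1 and matplotlib 3.10.9 were used.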

Additional observations from a re-analysis of the deposited data

Results flagged for a closer look

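The effect of calcium on PPARGC1A lay in opposite directions without and with DES. All 3 calcium libraries were above control and all 3 libraries of DES with calcium were below those of DES, a difference in effect of -0.823 on the log2 scale that did not pass the test of the difference (limma adjusted p = 0.618).

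In 9 list genes and comparisons the test of the difference passed, and in each the effect of the metal was lower with DES than without. Over all 14686 genes tested the calls leaned the same way, with 350 lower and 183 higher for calcium and 138 lower and 35 higher for cadmium. For calcium the difference in log2 effect was -1.29 for PNRC1, -1.62 for PERM1, -2.55 for CDKN1A, -1.55 for CDH1, -2.28 for KLF4, -2.91 for KLF2, -1.87 for KLF5 and -5.56 for AREG. For cadmium it was -3.2 for KLF5. Of 12 fits that each left out a library the call held in 12 for CDH1 and AREG, 9 for KLF5 in cadmium, 7 for PNRC1, 5 for CDKN1A, KLF2 and KLF4, 3 for KLF5 in calcium and 1 for PERM1. Without the 4 libraries with over 28000 genes detected only CDH1 and AREG of these were called, and without the filter on low values or with limma-voom AREG was not. These 9 share the control and DES libraries, and the medium of the control group was not specified.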

How the results depend on the processing

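The low fragment counts of ESRRB, ESRRG and PPARGC1A limit what could be detected, and with 3 libraries a group single libraries carry weight. Without the 4 libraries with over 28000 genes detected, cadmium is 1 library, assumed to vary like the other groups, and DES against control is the fit without DES replicate 3. Of the 108 counts of called members under alternatives that kept every library or left out the 4 named ones, 84 were within 1.5 times the reported count and 24 were not; the cause was not tested. For DES against control the count of 1 became 2 (ESRRA and PPARGC1B) with a pseudocount of 1, a mean of at least 2 FPKM, median-ratio scaling, total-fragment scaling and limma-voom, 3 with arrayWeights, where PPRC1 was added, and 0 without the 4 libraries. PPARGC1B has a mean under 2 FPKM, so with that minimum its call was read from the fit without a filter. Without the filter it stayed at 1, but PPARGC1B (adjusted p = 0.0329) took the place of ESRRA (0.176). For DES with calcium against calcium the count of 1 became 2 (ESRRA and PPRC1) with total-fragment scaling, all 7 groups in one fit, arrayWeights and the replicate block, and 3 with limma-voom, where PPARGC1A was added. For DES with cadmium against cadmium the count of 1 became 2 with limma-voom, 3 with all 7 groups in one fit and 4 with arrayWeights, and 0 without the filter, with the block, with the correction for GC content and length and without the 4 libraries, a fit in which limma called 0 of 14686 genes, with 676 higher and 664 lower at an unadjusted p under 0.05. With arrayWeights 1 member was called for cadmium (ESRRA), 1 for either metal on top of DES and for the difference in calcium effects (PPRC1 each time), and 2 for the difference in cadmium effects (NRIP1 and PPRC1). Calls over all genes grew too, from 19 higher and 3 lower to 4332 and 3993 for cadmium, and from 35 and 138 to 2778 and 3580 for the difference in cadmium effects. Leaving out 1 library at a time gave 0 to 1 members for DES, 1 for DES with calcium against calcium and 0 for the 8 others.

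The log2 difference of PPARGC1A in DES with cadmium against cadmium, -0.56 as reported, was 0.10 after the correction for GC content and length and 0.0248 without the 4 libraries. The difference in cadmium effects for NRIP1, -0.85, was 0.0356 without the 4 libraries. Both values without the 4 libraries rest on 1 cadmium library. Of the list gene calls named, 21 of 69 held in every fit that left out a library and 13 in every fit. With limma-voom 1787 genes were higher and 2967 lower for DES against control, beside 2447 and 1893.

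With the replicate number as a block PPRC1 passed for DES with calcium against calcium (adjusted p = 0.0381) and NRIP1 did not for DES with cadmium against cadmium (0.0656), in comparisons where the samples share only a number. In the 2 comparisons in which the numbers paired the samples, the block left the count of called members at 0.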
